A study of Mus musculus with 6 samples.

Results

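The 10 genes described here mark rare non-neuronal cells of the olfactory epithelium, the microvillar chemosensory cells and the ionocytes. They are Trpm5, Pou2f3, Plcb2, Chat, Ascl3, Foxi1, Cftr, Itpr3, Il25 and Coch. They were taken as a list of symbols, chosen with earlier results of these data known. Every probe set whose platform annotation names 1 of these genes alone was used, which gave 13 probe sets for the 10 genes out of 18194 genes named on the array. RNA of the olfactory epithelium was hybridised to Affymetrix mouse 430 2.0 arrays, with 3 arrays labelled homozygous and 3 labelled heterozygous for the OMP-GFP allele. In that allele, as background, green fluorescent protein stands in place of the coding sequence of Omp, the olfactory marker protein gene of mature olfactory neurons. Homozygous mice therefore lack the protein and heterozygous mice keep an intact copy, while both groups carry GFP and no wild-type group was analysed. Loss of the protein cannot be told apart from a second GFP copy. Nothing in the labels states strain, age, sex or how many animals gave each RNA sample, and the p-values cover only the spread between the samples at hand, which may be technical.

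Microvillar chemosensory cells resemble the tuft and brush cells of other mucosae. They depend on the transcription factor Pou2f3 and signal through phospholipase C beta 2 (Plcb2), the inositol trisphosphate receptor Itpr3 and the cation channel Trpm5. Microvillar chemosensory cells can release acetylcholine, made by choline acetyltransferase (Chat), and tuft cells of the gut release the cytokine interleukin 25 (Il25). Ionocytes are rich in the chloride channel Cftr and in proton pumps, and are specified by the forkhead factor Foxi1, with the basic helix-loop-helix factor Ascl3 as a further marker. Coch encodes cochlin, a secreted matrix protein best known from the inner ear.

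Pou2f3 belongs to the factors that bind the octamer motif, so the gene starts of the members were searched for it. RefSeq promoter windows of build GRCm38.p6, running from 250 bases before to 50 bases after the start, were found for 8 of the 10 genes, all but Pou2f3 and Il25. The octamer ATGCAAAT, searched on both strands, lies in the window of Itpr3 alone, and in 1.74% of all 32851 windows. Its first 7 letters, ATGCAAA, which overlap the octamer by construction, also lie in the window of Ascl3 and in 4.63% of all windows. The forkhead motif GTAAACA was in the windows of 0 of the 8 genes and in 3.65% of all windows. Both stretches with a match are shown because these genes belong to the members bright enough to be compared, and the capitals mark the match, which reads on the opposite strand. The Ascl3 stretch is chr7:109731733-109731832 on the minus strand, the 100 bases before the start. The Itpr3 stretch is 30 bases at chr17:27057266-27057295 on the plus strand, and RefSeq's model of the whole gene begins upstream of it.
Ascl3: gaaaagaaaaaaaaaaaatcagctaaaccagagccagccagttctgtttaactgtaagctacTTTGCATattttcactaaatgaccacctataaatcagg
Itpr3: tcccaggcgggATTTGCATgtgtgtggcgg
These matches describe the letters of the windows and were not tested as binding sites.

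The labelled tissue and libraries were checked on all arrays. Omp probe set 1422199_at read 5.7, 8.8 and 31.3 in the homozygous arrays, 26.3 in the library labelled heterozygous 1, and 4663.8 and 9143.0 in the other two heterozygous arrays, while 1422200_at lay between 7918.5 and 8774.4 on all 6. Where either lies relative to the replaced sequence is not given here, so neither settles the labels. The summed signal of 5 sustentacular cell markers lay between 61252 and 65649 on the 6 arrays. Myelin genes were high in the library labelled heterozygous 1, where Mbp read 7268.5 against 655.2 to 1037.9 elsewhere. Among the 3 tested genes of olfactory bulb and brain neurons, Rbfox3 and Cplx1 were high in heterozygous 3, at 791.1 and 738.2. The third, Eomes, was lowest there, at 205.2 against 310.5 to 510.0 on the other arrays. The part of these cells in the values of the members was not tested.

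The members fell into a measurable and a dim set. A probe set was tested when its mean log2 value reached the median over all probe sets, which corresponds to a MAS5 signal of about 154.6 intensity units. This left 6 of the 13 probe sets, 1 each for Coch, Ascl3, Foxi1, Itpr3, Cftr and Pou2f3. The other 7, among them all probe sets of Trpm5, Chat, Plcb2 and Il25, are given as values with no test. A background measured the same way came from 13 genes of other organs, such as testis and pancreas, whose mean signals ran from 15.2 to 86.4 except for the growth hormone gene Gh. Gh averaged 163.7, with 626.9 in homozygous 1 and 44.5 to 96.2 on the other arrays. The 5 member genes Coch, Ascl3, Foxi1, Itpr3 and Cftr each had a probe set whose mean lay above all of these. Pou2f3, at 116.2 to 245.7, and Plcb2, at 91.4 to 175.1, lay above 86.4 on all 6 arrays, and their means were exceeded only by Gh. That 86.4 is a mean, however, and the gene behind it read up to 126.1 on single arrays. The means of the other 6 member probe sets, those of Trpm5, Chat and Il25 and the second one of Cftr, lay under 86.4. Probe sets differ in affinity, so a dim signal does not show that a transcript is absent. The ionocyte genes Foxi1, Ascl3 and Cftr were thus measurable, as were Itpr3 and, at the edge of the filter, Pou2f3. Plcb2 fell under the filter, and Trpm5, Chat and Il25 lay within or below the range of genes of other organs.

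**Figure D1:**
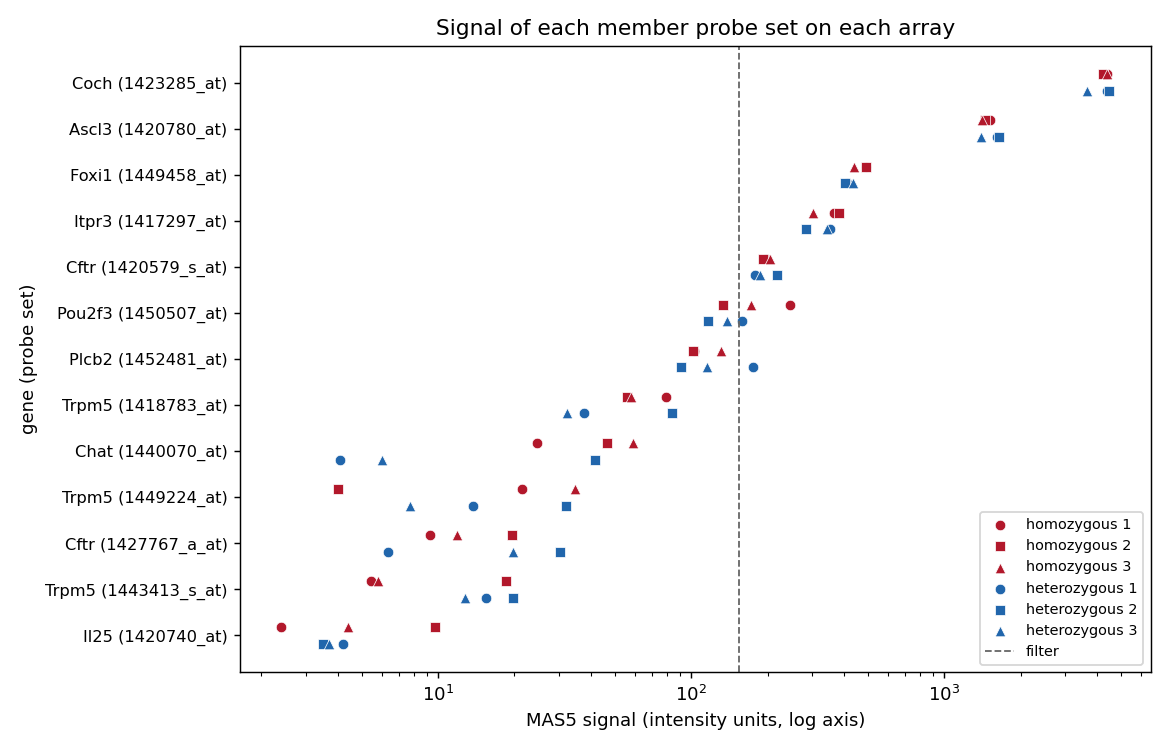
MAS5 signal of each of the 13 member probe sets (rows) on a log axis, with 1 point per array, red for homozygous and blue for heterozygous, and the dashed line at the signal equivalent of the filter. Coch lies near 4253 on average and Il25 near 4.65, and the groups are intermixed in every row except Foxi1.

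No member was called different between the groups. Of the 6 tested probe sets, 0 passed an adjusted p of 0.05 in limma and 0 reached an unadjusted p of 0.05. Of all 22514 probe sets tested, 0% passed adjustment and 5.73% reached the unadjusted threshold. Leaving out homozygous 2 brought 1 member, Pou2f3, to an unadjusted p of 0.0355, with an adjusted p of 1. The difference was positive, meaning higher in homozygous arrays, for 5 of the 6, where 53.6% of all tested probe sets were positive. Pou2f3, among the positive ones, passed the filter only through its homozygous arrays, so its sign is not independent of the filter. The median log2 difference of the 6, Pou2f3 included, was 0.075, beside 0.010 over all tested probe sets. Their median absolute difference was 0.089, beside 0.081. An exact permutation test of 3 against 3 arrays has 20 splits and cannot give a two-sided p under 0.1. In tissue RNA, fewer cells of a type and less RNA per cell cannot be told apart.

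Foxi1, the forkhead factor of ionocytes, was the only member whose arrays did not overlap between the groups. Probe set 1449458_at read 488.6, 488.6 and 439.7 in homozygous 1, 2 and 3. Values were 412.7 for the library labelled heterozygous 1, 404.1 for heterozygous 2 and 434.7 for heterozygous 3. The lowest homozygous array thus lay just above the highest heterozygous one. Separation of this kind was seen for 10.9% of all tested probe sets, and for 5.93% in the direction of Foxi1, so 1 of 6 members is near the background. Over all 13 member probe sets it remained the only one, where 10.8% of all probe sets with no filter were separated. The log2 difference was 0.16 ± 0.10 (SE), a 1.12-fold higher signal with a 95% interval of 0.963 to 1.30. Its adjusted p in limma was 0.900 and its exact permutation p was 0.1, the smallest this design allows.

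Ascl3, the other ionocyte transcription factor, was bright and leaned the other way. Probe set 1420780_at read 1517.3, 1443.0 and 1413.3 in homozygous 1, 2 and 3. Values were 1619.3 for the library labelled heterozygous 1, 1646.0 for heterozygous 2 and 1396.3 for heterozygous 3. Heterozygous 3 was the lowest of all 6 arrays and the remaining heterozygous arrays were the highest, so the groups overlapped. The log2 difference of -0.087 ± 0.086 (SE) had an adjusted p of 0.923 in limma. The 95% interval ran from 0.826-fold to 1.07-fold.

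Cftr, the chloride channel enriched in ionocytes, had a measurable and a dim probe set. Probe set 1420579_s_at read 198.1, 192.2 and 205.0 in the homozygous arrays in order of number. Values were 178.2 for the library labelled heterozygous 1, 217.1 for heterozygous 2 and 187.0 for heterozygous 3, so the heterozygous arrays lay on both sides of the homozygous ones. The log2 difference was 0.030 ± 0.13 (SE), the limma adjusted p was 0.991, and its sign turned to -0.0040 after quantile normalization. The 95% interval ran from 0.833-fold to 1.25-fold. The dim probe set 1427767_a_at read between 6.3 and 30.4 on the 6 arrays.

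Coch had the brightest signal of the list and the narrowest error. Probe set 1423285_at read 4377.4, 4234.4 and 4386.0 in homozygous 1, 2 and 3. Values were 4371.7 for the library labelled heterozygous 1, 4474.3 for heterozygous 2 and 3672.7 for heterozygous 3. The arrays lay together except for heterozygous 3, which was the lowest. The log2 difference was 0.059 ± 0.081 (SE), at a limma adjusted p of 0.958 and with an interval from 0.921-fold to 1.18-fold. Without heterozygous 3 the sign turned, to a log2 difference of -0.030. The summed signal of 7 mature neuron markers was also lowest on heterozygous 3, at 41490 against 48598 to 53782 on the other arrays. Omp itself, at 1422200_at, was not low there, at 8318.5. Sustentacular markers, at 61252 against 64148 to 65649, and respiratory ciliated markers, at 4800.4 against 4805.3 to 5494.3, were lowest there as well. Gland, macrophage, glia and brain neuron sums were not. The part of any of these in the value of Coch was not tested.

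Itpr3, which releases calcium from internal stores, was measurable, and which cells gave its signal was not tested. Probe set 1417297_at read 366.1, 381.8 and 301.9 in homozygous 1, 2 and 3. Values were 352.8 for the library labelled heterozygous 1, 282.6 for heterozygous 2 and 342.7 for heterozygous 3. The lowest array was heterozygous 2 and the next lowest homozygous 3, so the groups were interleaved. The log2 difference was 0.091 ± 0.13 (SE), at a limma adjusted p of 0.959 and with an interval from 0.874-fold to 1.30-fold. Without heterozygous 2 it was 0.0023.

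Pou2f3, the factor on which chemosensory microvillar cells depend, lay at the edge of the filter, at the 50.2 percentile of all probe sets by mean log2 value. Probe set 1450507_at read 245.7, 133.9 and 172.3 in homozygous 1, 2 and 3. Values were 157.9 for the library labelled heterozygous 1, 116.2 for heterozygous 2 and 138.6 for heterozygous 3. Homozygous 1 stood highest, while homozygous 2 lay among the heterozygous arrays. The log2 difference of 0.31 ± 0.20 (SE) was the largest among the tested members and had an adjusted p of 0.900 in limma. Its interval, from 0.920-fold to 1.68-fold, was the widest as well. The spread of Pou2f3 within groups was an SD of 0.28 on the log2 scale, beside a median of 0.13 over all tested probe sets. Its mean signal was 184 in the homozygous and 137.6 in the heterozygous arrays, on either side of the filter's 154.6. Pou2f3 thus passed the filter through the group where it was higher, which limits what its difference can show. Without homozygous 1 or without homozygous 3 it no longer passed the filter.

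**Figure D2:**
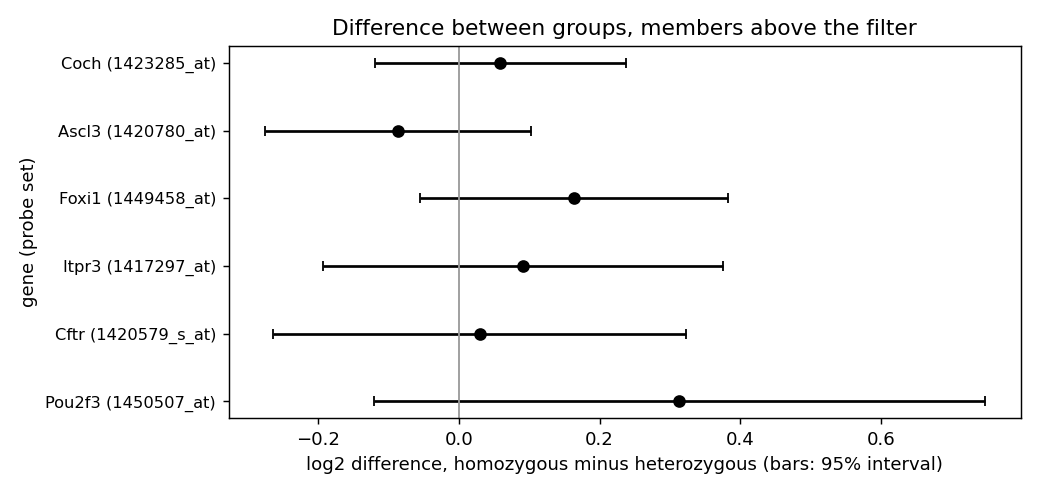
Log2 difference between homozygous and heterozygous arrays (horizontal axis) for the 6 member probe sets above the filter, as points with 95% limma intervals. Every interval crosses 0, from the narrow one of Coch (-0.12 to 0.24) to the wide one of Pou2f3 (-0.12 to 0.75).

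Plcb2, the phospholipase upstream of Itpr3 in tuft cells, fell just under the filter, at the 45.1 percentile. Probe set 1452481_at read 102.5, 101.3 and 131.4 in homozygous 1, 2 and 3. Values were 175.1 for the library labelled heterozygous 1, 91.4 for heterozygous 2 and 115.1 for heterozygous 3. The heterozygous arrays held both the highest and the lowest value.

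Trpm5, the channel that depolarises these cells, is represented by 3 probe sets, all of them dim. Probe set 1418783_at read 79.3, 55.6 and 57.6 in homozygous 1, 2 and 3, and 37.8, 83.9 and 32.3 in the libraries labelled heterozygous 1, 2 and 3. Probe set 1449224_at ran from 4.0 in homozygous 2 to 34.8 in homozygous 3, and 1443413_s_at from 5.4 in homozygous 1 to 19.7 in heterozygous 2. The 3 probe sets did not share a direction, with log2 differences of 0.23, 0.046 and -0.18 in that order. At these signals the offset of 38.8 added before the log weighs on every difference.

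Chat, the acetylcholine-producing enzyme, had the widest gap between group means among the dim members. Probe set 1440070_at read 24.6, 46.5 and 59.0 in homozygous 1, 2 and 3, and 4.1, 41.5 and 6.0 in the libraries labelled heterozygous 1, 2 and 3. The low values came from the libraries labelled heterozygous 1 and 3, while heterozygous 2 lay among the homozygous arrays. The log2 difference of 0.59, given with no test, was 2.02 with no offset, 0.21 with the pooled median as offset, and 0.010 without the libraries labelled heterozygous 1 and 3. All 6 values lie below 86.4, and those of the libraries labelled heterozygous 1 and 3 lie below the lowest mean of the genes of other organs, 15.2. Il25, the tuft cell cytokine, was the dimmest member, and probe set 1420740_at ran from 2.4 in homozygous 1 to 9.7 in homozygous 2.

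Across the list the arrays did not rank in a common order. Heterozygous 2 was the highest array for 6 of the 13 probe sets, the dim ones included, and the lowest for 4. Among the tested members it was the highest for 3, Coch, Ascl3 and Cftr, and the lowest for the other 3, Foxi1, Itpr3 and Pou2f3. Heterozygous 3 was highest for 0 of the 13 and lowest for 3. The deviation of each array from the mean of a probe set had a median over the tested members between -0.080 in heterozygous 3 and 0.077 in homozygous 1 on the log2 scale.

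Without the libraries labelled heterozygous 1 and 3, which held the high myelin and brain neuron signals, 1 heterozygous array was left. The log2 difference was 0.21 for Foxi1, -0.17 for Ascl3, -0.11 for Cftr, -0.046 for Coch, 0.27 for Itpr3 and 0.49 for Pou2f3. The spread in that fit came from the homozygous arrays alone, the lone heterozygous array being assumed to vary like them, so these are given as values with no test.

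Other genes of microvillar and tuft cells were not called either. Of 31 listed genes, 25 had a probe set and 6 passed the filter, 3 higher and 3 lower in homozygous arrays, and 0 reached an unadjusted p of 0.05. Their median log2 difference was 0.023. Alox5ap, which helps make leukotrienes, read 315.2, 283.3 and 284.7 in the homozygous arrays and 230.1, 269.5 and 213.3 in the heterozygous arrays, where the value of 230.1 is from the library labelled heterozygous 1. Its arrays did not overlap, with a log2 difference of 0.27, an interval from 0.997-fold to 1.47-fold and an adjusted p of 0.869 in limma. Alox5ap is also made by macrophages. Of 5 macrophage markers, 4 were higher in homozygous arrays, 2 of them at an unadjusted p under 0.05 in limma. Of all tested probe sets, 53.6% were higher there, 5.73% reached that threshold in either direction and 10.9% did not overlap. Cd68 differed by 0.22 and C1qb, whose arrays did not overlap, by 0.24 on the log2 scale, at limma adjusted p values of 0.867 and 0.869, and the bright Csf1r by 0.051. The summed signal of the 5 was 5615.7 to 6181.8 in homozygous and 5517.6 to 5794.8 in heterozygous arrays. The part of macrophages in the value of Alox5ap was not tested. The kinase gene Bmx differed by 0.18, the G protein subunit gene Gng13, also made by olfactory neurons, by 0.055, and the keratin gene Krt18 by -0.0084 on the log2 scale. Gng13 and Krt18 were bright, with means of 11950 and 8445, and the part of rare cells in these signals was not tested.

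Other ionocyte genes were measured more often. Of 19 listed, 16 had a probe set and 8 passed the filter, 3 higher and 5 lower in homozygous arrays, with a median log2 difference of -0.013 and 0 at an unadjusted p of 0.05. The proton pump subunit genes Atp6v1b1, Atp6v1c2 and Atp6v0d2 averaged 1106, 917.3 and 661.6 over the arrays. Their log2 differences were -0.10, -0.018 and 0.13, with adjusted p values in limma between 0.915 and 0.992. The anion exchanger gene Slc4a1 had the largest difference of the list, 0.78, and rested on 1 array. It read 945.0 in homozygous 1 and 136.0 to 288.8 on the other arrays, and without homozygous 1 its difference was 0.16. Slc4a1 is also the abundant anion exchanger of red cells.

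Genes linked to the products of chemosensory cells were compared last. Of 6 genes of acetylcholine handling and nerve fibres, 2 passed the filter and 0 reached an unadjusted p of 0.05. These were the neurofilament gene Prph, with a log2 difference of 0.26, and the homeobox gene Isl1, with -0.12. The vesicular acetylcholine transporter gene Slc18a3 averaged 30.2 and the choline transporter gene Slc5a7 15.3, both named after their values were seen and both below the filter. For the mucosal response linked to interleukin 25, alarm cytokines such as Il33 included, 12 symbols were listed, which may include older names of the same gene. Of these symbols, 9 had a probe set and 2 passed the filter. Il33, an epithelial alarm cytokine, differed by -0.048, with an adjusted p of 0.975 in limma. Chil4, a chitinase-like protein gene, read 2444.6 in heterozygous 2 and 74.8 to 159.6 on the other arrays. Its log2 difference of -1.04 had an adjusted p of 0.915 in limma, and without heterozygous 2 it turned to 0.38.

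Close family members were measured as well. Of 15 listed relatives, 10 had a probe set and 5 passed the filter, 2 higher and 3 lower, with 0 at an unadjusted p of 0.05 and a median log2 difference of -0.13. The phospholipase gene Plcb4 differed by -0.13, its relative Plcb3 by 0.11 and the receptor gene Itpr2 by -0.14. Without heterozygous 3, Plcb3 turned to -0.052. The adjusted p of these relatives in limma lay between 0.911 and 0.953 for the genes named.

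**Figure D3:**
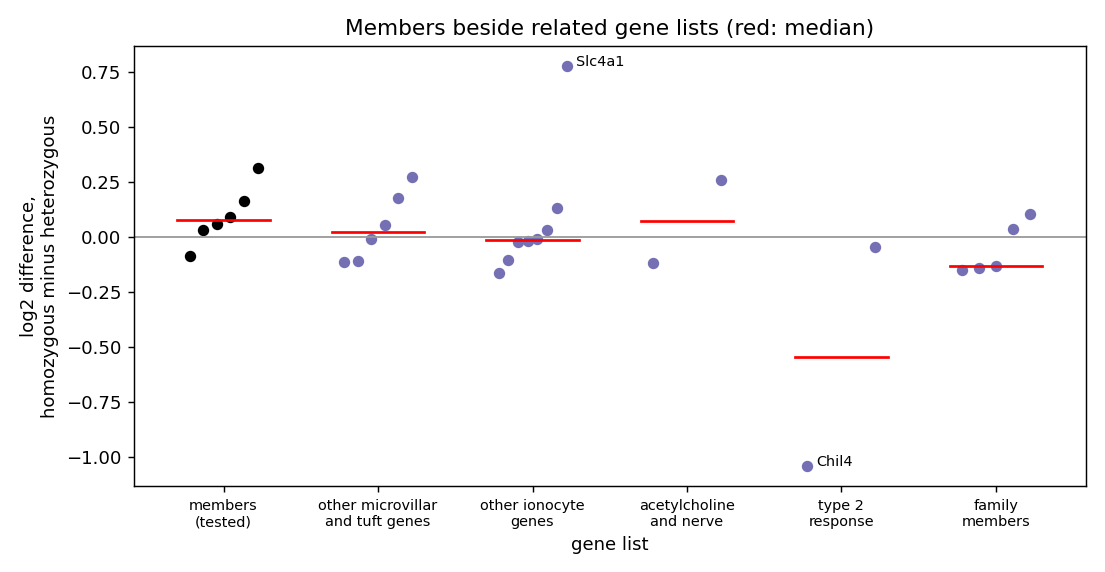
Log2 difference between homozygous and heterozygous arrays (vertical axis) for each tested gene of the members and of 5 related lists (horizontal axis), as 1 point per gene with the list's median as a red line. Most points lie within 0.3 of 0, and the distant ones are Slc4a1 at 0.78 and Chil4 at -1.04, each of which rests on 1 array.

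The values of the members were then followed through 15 alternative settings. Foxi1, Itpr3 and Pou2f3 were positive and Ascl3 negative in every setting in which they were tested. Part of this was fixed in advance. Changing only the filter, the intensity trend or the replicate block leaves a log2 difference as it was. The arrays of Foxi1 do not overlap, so leaving arrays out could not turn its sign. Foxi1 ranged from 0.12 to 0.21, Ascl3 from -0.17 to -0.044, Itpr3 from 0.0023 to 0.27 and Pou2f3 from 0.20 to 0.49. The range of Pou2f3 covers only the 12 settings in which it was tested. It leaves out the removal of either homozygous array that read above all heterozygous ones, because Pou2f3 then fell under the filter. The range therefore cannot show how far its difference drops without either of these arrays. Cftr and Coch changed sign in some settings. The adjusted p of the 6 members in limma lay between 0.550 and 1 over these settings.

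**Figure D4:**
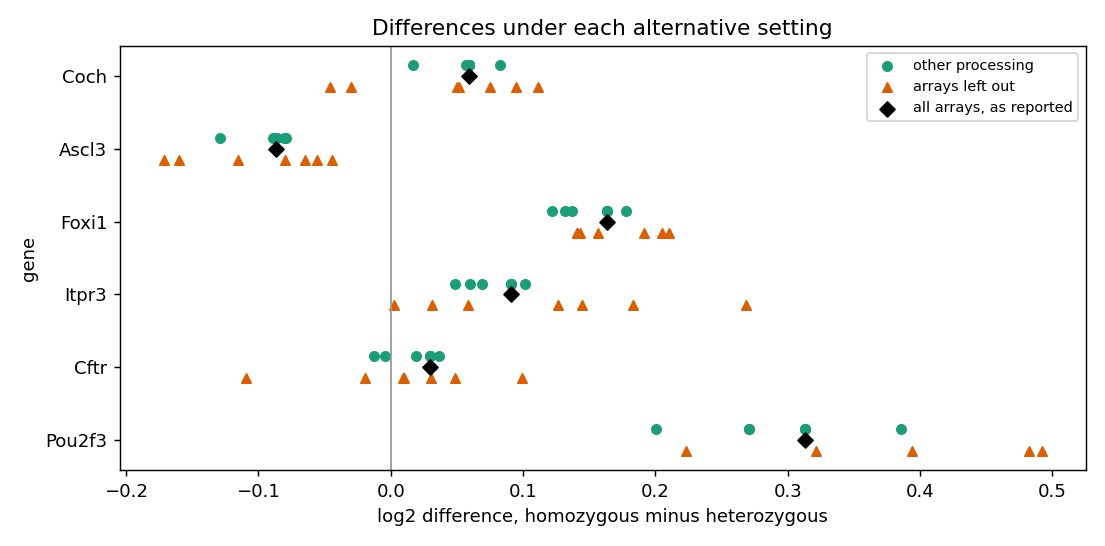
Log2 difference between homozygous and heterozygous arrays (horizontal axis) for each of the 6 tested members (rows), with a black diamond for all arrays as reported, green circles for other processing and orange triangles for arrays left out. The points of Cftr and Coch fall on both sides of 0, and those of Ascl3 all lie below it.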

How the data were processed

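Olfactory epithelium RNA was measured on 6 arrays. The authors deposited one linear intensity per probe set and array, made with MAS5 per the submitters' processing notes, its version and settings being not given in the sources used here. Trimmed by 2%, the mean was 500 on each array, so no further scaling was applied. No detection calls were used. An offset of 38.8, the pooled 25th percentile, was added before log2, which understates differences of dim probe sets. Of 45101 probe sets, 64 controls and those with a mean log2 value under the median were left out, and 22514 were tested with limma 3.58.1 in R 4.3.3 (lmFit, eBayes with an intensity trend, Benjamini-Hochberg adjustment). Residual degrees of freedom were 4, with a prior of 6.68. The number of arrays limits precision, at a median SE of 0.11.

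Members and lists were chosen with earlier results of these data known. All member probe sets were named. From other lists the 2 genes of lowest p and the 2 of highest signal, among those tested, could be named, with the probe set of highest mean standing for a gene. Slc18a3, Slc5a7 and the background gene Gh were named outside this rule, after their values were seen. Gene names came from the platform annotation. Alternatives were other offsets, scalings, filters and variance models, a replicate block and arrays left out.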

Additional observations from a re-analysis of the deposited data

How the results depend on the processing

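The count of member probe sets past adjustment stayed at 0 in all 15 alternatives, from all 13 tested with no filter to 2 with the filter at the 75th percentile. The count at an unadjusted p of 0.05 ran from 0 to 1 with single arrays left out. Over all probe sets, the number past adjustment was 1 with the pooled median offset, 0 to 25 with single arrays left out, the 25 without the library labelled heterozygous 1, and 27 without the libraries labelled heterozygous 1 and 3 together, where the 1 heterozygous array left has no spread of its own and is assumed to vary like the homozygous ones. The median over tested members was -0.014 with the filter at the 75th percentile, where only Coch and Ascl3 remained. Cftr reversed to -0.0040 with quantile normalization, -0.012 with a common median and -0.11 without the libraries labelled heterozygous 1 and 3, and ran from -0.019 to 0.099 with single arrays left out. Coch reversed to -0.046 without the same 2 libraries and ran from -0.030 to 0.11 with single arrays left out. The cause of these reversals was not tested. Of 84 values of the tested members under alternatives, 78 kept their direction and side of the threshold and 6 reversed. The 78 include settings of filter, intensity trend and replicate block, which cannot change a log2 difference. A common median moved the share of positive differences over all tested probe sets from 53.6% to 39.3%. Among the other genes named from the related lists, Gng13, Krt18, Atp6v1c2, Isl1, Il33, Chil4 and Plcb3 changed sign in at least 1 alternative.

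The replicate numbers of the titles were checked as a pairing. Deviations of same-numbered arrays from their group means correlated at 0.016, -0.12 and -0.047, so no pairing was used in the main fit. The labels do not say whether same-numbered arrays share a batch or litter. These correlations cannot decide it, because differences particular to single arrays also enter them. With the replicate block, 0 probe sets passed adjustment, 0 of the 6 members reached an unadjusted p of 0.05, and 1106 of all probe sets did, against 1291 without it. Signals within or below the range of genes of other organs limit what can be seen of Trpm5, Chat, Il25 and the dim Cftr probe set.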
